A study of Saccharomyces cerevisiae with 7 samples.

Results

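CPR1 (YDR155C), which encodes cyclophilin A, and FPR1 (YNL135C), which encodes the FK506-binding protein FKBP12, are 2 of 337 genes for which a readthrough index (RTI) was deposited in a GRO-seq comparison of the budding yeast TFIIB mutant sua7-1 with wild type (WT) cells. They were found in the table by their systematic names, and both were chosen because they are prolyl isomerases whose RTI in these libraries was already known to be high in the mutant and low in WT. Their RTI is therefore given as a description of the data, with no test of the members themselves. GRO-seq reads out nascent RNA that polymerases already on the genes extend in permeabilized cells, here labelled with BrUTP for 5 min at 30 °C after growth at 30 °C in YPD medium to an A600 of 0.8. The mutant group is 3 libraries of sua7-1 cells, whose allele of the TFIIB gene SUA7 puts lysine in place of a glutamic acid, and the WT group is 4 libraries. The labels name BY4733 for every library, a haploid laboratory strain that lacks HIS3, TRP1, LEU2, MET15 and URA3 function. The paper lists its mating type as alpha, which was not checked here. The labels number the mutant libraries as replicates 2, 3 and 4 and the WT libraries as replicates 1 to 4. The paper names 3 biological replicates of each strain without saying which WT libraries these are, so the spread given here is between libraries and may be technical.

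The RTI is a quotient of reads in 2 windows on either side of the annotated mRNA 3' end, each from 50 to 500 nt away, with the downstream window on top. Polymerases that pass the poly(A) site without terminating add to the downstream reads, so the RTI grows with readthrough. The ratio carries no read number, so depth is unknown and neither gene has a counting error here. The libraries held an RTI for 314 to 337 genes in sua7-1 and for 325 to 336 genes in WT replicates 1, 2 and 3. WT replicate 4 held only 38 genes, and neither CPR1 nor FPR1 is among them, so each gene rests on 3 mutant and 3 WT values.

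Prolyl isomerases speed the turn of the peptide bond before a proline between its cis and trans forms, a slow step in the folding and switching of many proteins. Cyclophilins and FKBPs are separate families of such enzymes with unrelated folds. Cyclophilin A is the cellular receptor of cyclosporin A, and the complex of drug and protein inhibits the phosphatase calcineurin. FKBP12 is the receptor of FK506, which acts on calcineurin in the same manner, and of rapamycin, whose complex with FKBP12 inhibits the TOR kinase complex 1. In budding yeast both proteins are abundant in the cytosol, and cells can live without either. Cpr1 is also a subunit of the Set3 histone deacetylase complex, and Fpr1 binds the chromatin protein Hmo1.

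Termination at protein coding genes in yeast is coupled to cleavage of the transcript at the poly(A) site, which is set by short AU-rich words in the RNA. The word TATATA (written as DNA) acts as an efficiency element and AATAAA as a positioning element, and TATGTA is a known variant of the first. These words were searched on the sense strand in the 300 nt after each stop codon of the R64 genome, the build named for the deposited values, with overlapping matches counted. The stretches of 30 bases below are shown because they hold words found downstream of each gene, on the strand whose readthrough was measured. Capitals mark TATATA in FPR1 and TATGTA in CPR1.
CPR1 first site: ttaaattaTATGTATATGTAtaaggtatgt
FPR1 first site: gaaatagaTATATAattacaaaagattaga
FPR1 second site: tcgcgatcTATATAtgagcagtgattattt
The CPR1 stretch lies on the minus strand at chrIV:768433-768462, which is 50 to 79 nt after the stop codon. The FPR1 stretches lie on the minus strand at chrXIV:371779-371808 and chrXIV:371640-371669, which are 74 to 103 nt and 213 to 242 nt after the stop codon.

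FPR1 held TATATA at 82 and 221 nt after the stop codon, and CPR1 did not hold it in its 300 nt. This word was present in 64.7% of the 331 genes that could be placed on the genome. Neither gene held AATAAA, which 46.2% of the 331 genes did. CPR1 held TATGTA at 58, 64 and 81 nt after the stop codon, the first 2 directly after each other and the third beyond the stretch shown, and FPR1 did not hold it. TATGTA, searched after the sequence was seen, was present in 34.7% of genes. The G and C content of the 300 nt was 41% for CPR1 and 33.3% for FPR1, against a median of 30% over the 331 genes. A match is a description of the letters, and the sites used by the cells were not determined.

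Both genes are short and have no intron in the annotation. CPR1 lies on the minus strand of chromosome IV from 768512 to 769000, a coding region of 489 nt for 162 residues. FPR1 lies on the minus strand of chromosome XIV from 371882 to 372226, a coding region of 345 nt for 114 residues. The median coding span of the 331 genes was 1029 nt, and 48 of them were shorter than CPR1 and 20 shorter than FPR1. The coding region of FPR1 is thus shorter than the 450 nt window from which upstream reads are counted, as in 39 of the 331 genes, and that of CPR1 is longer.

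The surroundings of the genes differ downstream. On the strand of CPR1 the next coding region is that of ENT5, an epsin-like protein of vesicle transport, which begins 540 nt after the CPR1 stop codon. This distance was shorter in 28 of the 331 genes, and the median was 2477 nt. The nearest gene of the opposite strand, GIR2, ends 2008 nt after CPR1. FPR1 has the reverse arrangement. EAF7, a subunit of the NuA4 acetyltransferase, ends on the opposite strand 236 nt after the FPR1 stop codon, so that the 2 genes converge. A gene of the opposite strand ended within 500 nt of the stop codon in 208 of the 331 genes. The next gene on the strand of FPR1, NAM9, begins after 1826 nt. The second FPR1 stretch shown above reaches into the end of EAF7. The authors placed their windows by mRNA 3' ends that are not among the values analysed here, so the exact windows of both genes were not determined. They kept genes with an mRNA 3' end 500 nt or more from the next gene on that strand. Under that filter the CPR1 window, which ends at 500 nt, would stop before ENT5. This was not checked.

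**Figure D1:**
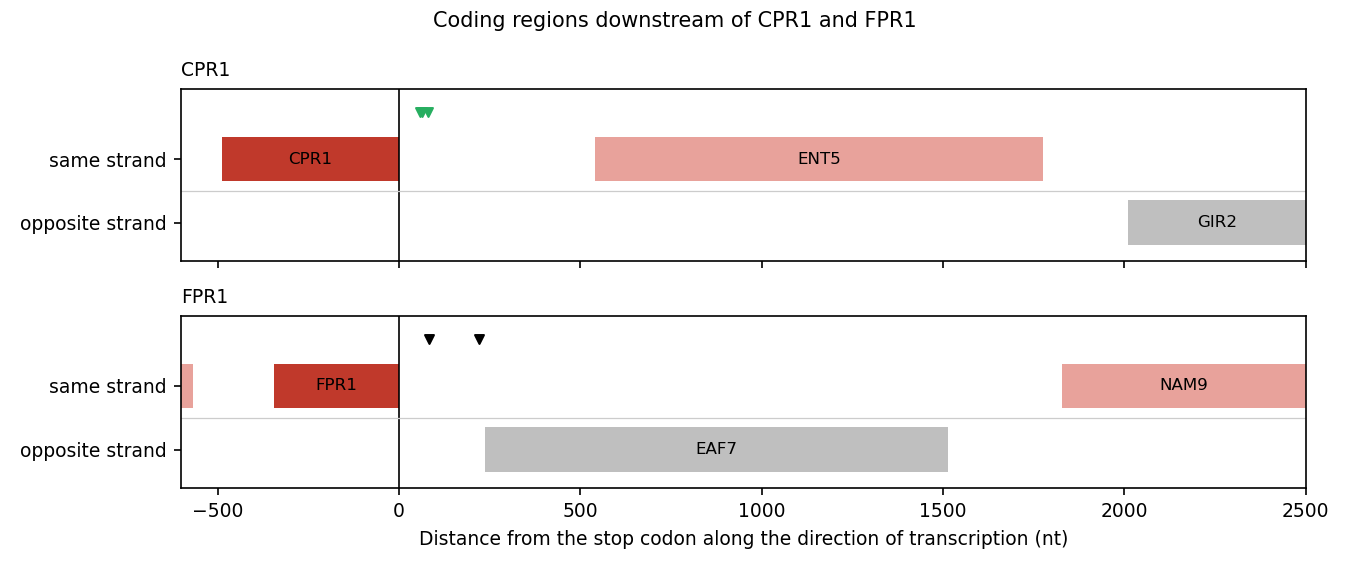
Coding regions around CPR1 (top) and FPR1 (bottom), plotted by distance in nt from the stop codon (vertical line) in the direction of transcription. Dark red bars are CPR1 and FPR1, light red bars other genes of the same strand and grey bars genes of the opposite strand, and triangles mark TATGTA (green, CPR1) and TATATA (black, FPR1). ENT5 begins 540 nt after CPR1 on its strand, and EAF7 ends 236 nt after FPR1 on the opposite strand.

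CPR1 had more signal after its 3' end in each mutant library than in any WT library. In sua7-1 replicates 2, 3 and 4 its RTI reached 0.109, 0.232 and 0.138, against 0.00385, 0.00192 and 0.00231 in WT replicates 1, 2 and 3. The strains did not overlap, as for 78.3% of the 337 genes, and the lowest mutant value was 28.3 times the highest WT value. The mean RTI was 0.160 ± 0.0641 in sua7-1 and 0.00270 ± 0.00102 in WT (SD, n = 3 each), a ratio of 59.2. On the log2(RTI + 0.002) scale, which understates the change of a gene with a WT value near the added constant, the difference was 5.05 with a standard error of 0.51 in the limma fit across all genes. Leaving aside the 6 genes listed at 0 in each of their WT libraries, no gene had a larger fitted log2 difference at this constant. With 0.01 in place of 0.002 that rank was not kept. The difference of CPR1 was then 3.68, and those of several genes were larger, among them SSH1, a gene described below.

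FPR1 had higher values than CPR1 in the mutant and was listed at 0 throughout in WT. In sua7-1 replicates 2, 3 and 4 its RTI reached 0.316, 0.5 and 0.667, and it was listed at 0 in WT replicates 1, 2 and 3. The strains did not overlap for this gene either, as for 78.3% of all genes. The mean over the mutant libraries was 0.494 ± 0.176 (SD, n = 3). The values 0.316, 0.5 and 0.667 can each be written as a fraction of small whole numbers. Whether few reads lie behind them and behind the WT zeros was not tested, as read numbers are not among the values. The authors' filter asked for 1 or more reads per nucleotide of the coding region in at least 3 biological replicates. It does not give the reads of either window. No fold is given, since every WT value is 0 and no read number says how small a ratio could have been seen. In the mutant, the downstream window of FPR1 thus held from 0.316 to 0.667 times as many reads as the window before the poly(A) site. For 17 of the 337 genes the mean RTI in the mutant was higher than that of FPR1, and for 87 it was higher than that of CPR1.

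**Figure D2:**
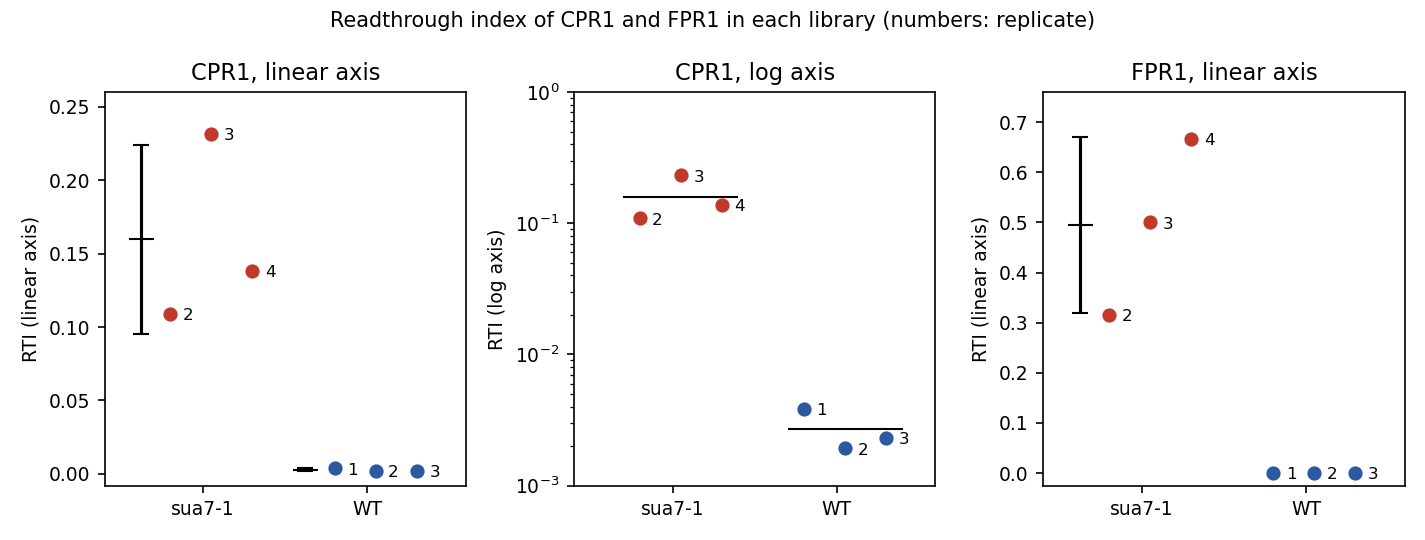
RTI of CPR1 (left on a linear axis, centre on a log axis) and FPR1 (right, linear axis) in sua7-1 (red) and WT (blue) libraries, each point a library with its replicate number. Black marks are means, with SD (n = 3) on the linear axes, and no mean is drawn for FPR1 in WT, where each value is 0. Every mutant point lies above every WT point, at 0.109 to 0.232 for CPR1 and 0.316 to 0.667 for FPR1.

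Both genes were among the genes called in the mutant, as most genes were. Of the 337 genes, 75.1% rose in the limma test at a log2 difference over 1 and a Benjamini-Hochberg adjusted p under 0.05, 0.89% fell, and for 78.3% the lowest mutant value exceeded the highest WT value. CPR1 and FPR1 met both limits. Since they were chosen on this contrast, nothing is read from that. By the plain difference of mean RTI, FPR1 (0.494) was exceeded by 7 genes and CPR1 (0.157) by 58, and the median difference over all genes was 0.0402.

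A WT value of 0 in every library was rare in the table, and the other genes that share it had little readthrough in the mutant. Of 337 genes, 6 were listed at 0 in each WT library with a value, FPR1 among them. The others, named here after their values were seen, were EGD2, a subunit of the nascent polypeptide-associated complex, UBC4, a ubiquitin-conjugating enzyme, GLC7, a protein phosphatase, and the cell wall protein genes CIS3 and CCW14. Their mean RTI over the mutant libraries was 0.00663 for CIS3, 0.00781 for CCW14, 0.00894 for EGD2, 0.00970 for UBC4 and 0.0134 for GLC7, against 0.494 for FPR1. No mutant library of these 5 genes reached the lowest FPR1 value of 0.316. Whether the values of the 6 genes rest on similar read numbers was not tested, as read numbers are not among the values.

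The members differed in how their values followed the libraries. CPR1 was highest in sua7-1 replicate 3 and lowest in replicate 2, the order of the library medians, which were 0.0414, 0.0850 and 0.0680 in sua7-1 replicates 2, 3 and 4. FPR1 was highest in replicate 4 and lowest in replicate 2. The RTI of FPR1 was 2.90, 2.16 and 4.82 times that of CPR1 in these libraries. The SD of the mutant values was 40.1% of the mean for CPR1 and 35.5% for FPR1, and over the genes with 3 mutant values its median was 40.7%. In WT, CPR1 was highest in replicate 1, the library with the largest median among WT replicates 1, 2 and 3 (0.0142, 0.00349 and 0.00459).

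Within the libraries, both genes changed place among all genes. CPR1 lay above 76.4%, 79.7% and 70.9% of the genes in sua7-1 replicates 2, 3 and 4, and above 22.2%, 35.6% and 33.0% of the genes in WT replicates 1, 2 and 3. It stood at 2.64, 2.73 and 2.03 times the library median in the mutant, and at 0.272, 0.552 and 0.503 times the median in WT. CPR1 was thus in the upper part of each mutant library and in the lower part of each WT library. FPR1 lay above 93.6%, 93.5% and 95.8% of the genes in the mutant libraries, at 7.63, 5.88 and 9.80 times their medians. In WT replicates 1, 2 and 3 it was among the 10, 36 and 27 genes listed at 0.

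**Figure D3:**
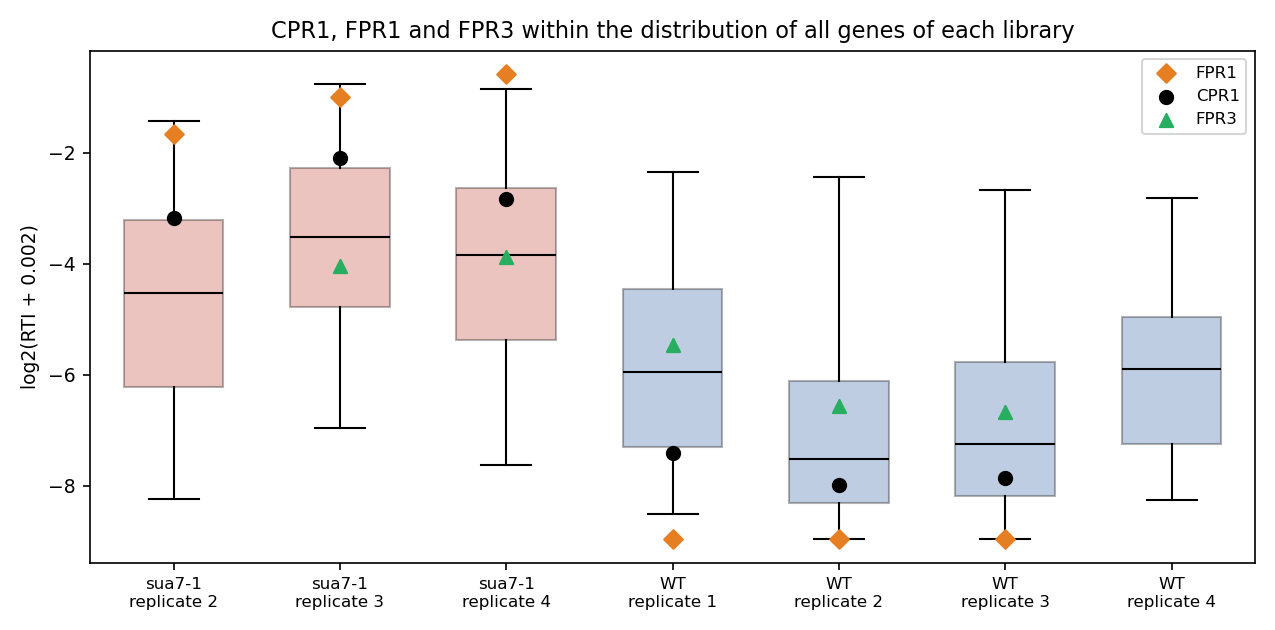
Distribution of log2(RTI + 0.002) over all genes of each library, with boxes from the lower to the upper quartile, the median as a line, whiskers at the 5th and 95th percentile, and FPR1 (orange), CPR1 (black) and FPR3 (green) marked where a value was listed. FPR1 and CPR1 lie above the median of each sua7-1 library (red) and below that of WT replicates 1, 2 and 3 (blue), while FPR3 lies below the median in sua7-1 replicates 3 and 4 and above it in WT replicates 1, 2 and 3.

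Because most genes rose together, the change of CPR1 was also set against all genes. The median log2 difference of the 337 genes was 2.44, so that CPR1 stood 2.62 above it. After each library was divided by its median, the median of all genes was -0.19 and the log2 difference of CPR1 was 2.27, which is 2.46 above that median. The direction of CPR1 was the same on both scales, and its size was smaller on the second. Over all genes that division left 23 rises and 53 falls, against 253 rises and 3 falls without it.

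Of the 15 prolyl isomerase genes of yeast listed (8 cyclophilins, 4 FKBPs, the parvulin ESS1 and the PP2A activators RRD1 and RRD2), 3 are in the table, which are CPR1, FPR1 and FPR3. FPR3 encodes a nucleolar FKBP with a long acidic region. Its values were 0.0587 and 0.0663 in sua7-1 replicates 3 and 4, with no value in replicate 2, against 0.0207, 0.00860 and 0.00777 in WT replicates 1, 2 and 3. The libraries did not overlap, as for 78.3% of all genes. The log2 difference of 2.28 (standard error 0.60) passed the test (limma, adjusted p = 0.0059). It rests on 2 mutant libraries. Within the libraries, FPR3 lay above 38.8% and 49.6% of genes in these mutant libraries and above 60.9%, 65.6% and 61.0% in WT. Relative to all genes its log2 difference was -0.16, and after division of each library by its median it turned to -1.03, where it no longer passed (limma, adjusted p = 0.12). FPR3 is thus the only measured prolyl isomerase gene whose call was not fixed by the choice of members, and it is among the 75.1% of genes that rose on unscaled values.

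The partners of the 2 enzymes were hardly represented. None of the 11 listed genes of calcineurin, its regulators and TOR complex 1 is in the table, and of the 7 listed members of the Set3 complex only CPR1 itself is. Of 34 genes of other cytosolic chaperones and folding factors 11 are in the table, and all 11 rose (limma, highest adjusted p = 0.025), beside 75.1% of all genes. With a pseudocount of 0.01, 8 of the 11 rose, beside 69.1% of all genes. Their median log2 difference was 2.67, or 2.71 without the 1 gene listed at 0 in every WT library, against 2.44 over all genes, and the 10 other values ran from 2.16 to 4.47. After each library was divided by its median, 3 of the 11 rose and none fell, beside 23 rises (6.82%) and 53 falls among all 337 genes.

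The gene with the pattern nearest to CPR1 was HSC82, a cytosolic Hsp90 chaperone. Likeness was measured as the Euclidean distance between log2(RTI + 0.002) values over the 6 libraries with a value, among 285 genes with a value in all of them. HSC82 lay at a distance of 1.03, followed by THR4 (threonine synthase) at 1.43 and VMA2 (a subunit of the vacuolar proton pump) at 1.67. HSC82 has a close copy, HSP82, which may share its reads. Its values were 0.0780, 0.205 and 0.105 in sua7-1 replicates 2, 3 and 4, against 0.00824, 0.00207 and 0.00249 in WT replicates 1, 2 and 3. The mutant values of HSC82 followed the same order of libraries as those of CPR1.

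No gene lay as close to FPR1. Its nearest was CPR1 itself at 3.63, followed by THR4 at 4.28 and SSH1, which encodes part of a protein translocation channel of the endoplasmic reticulum, at 4.39. Both members were chosen as high in the mutant and low in WT, so their nearness is not read as a result. The distances of FPR1 depend on the constant added to its WT zeros. With 0.0005 in place of 0.002 CPR1 stayed the nearest. With 0.01 SSH1 was the nearest, at 2.12, and CPR1 was not among the 3 nearest. SSH1 had a mean RTI of 0.299 in sua7-1 and 0.00895 in WT, so that it came nearer to FPR1 than CPR1 in the mutant and lay farther from it in WT.

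**Figure D4:**
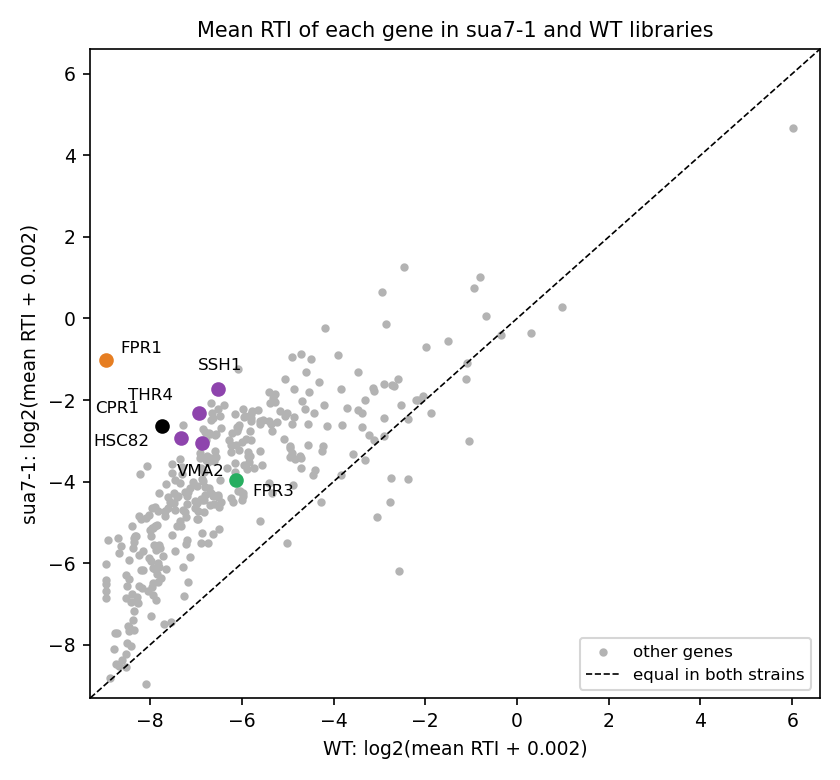
Mean RTI of the 337 genes in sua7-1 (vertical axis) against WT (horizontal axis), both as log2(mean RTI + 0.002), with each point a gene and the dashed line at equal values. FPR1 (orange) lies at a mutant mean of 0.494 with WT listed at 0, CPR1 (black) at a mutant mean of 0.160 and a WT mean of 0.00270, FPR3 is green, and the genes nearest in pattern are purple.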

How the data were processed

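Adapters were removed by the authors with cutadapt, and reads were aligned to S288C (build R64, credited to the submitters' processing notes) by an aligner not given in the sources used here. Genes had mRNAs of 500 nt or more and no neighbour on their strand within 500 nt of the mRNA 3' end. The paper also asked for 1 or more reads per nucleotide of the coding region in at least 3 biological replicates. For each gene and library the authors deposited a ratio of read counts, the RTI, with a minimum of 5 libraries, 2 or more per strain. The authors' columns of strain means, log2 ratios and p-values were not used. A second block of 168 rows was left out, and it holds 0 rows of CPR1 or FPR1.

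All 7 libraries were fitted with limma 3.58.1 under R 4.3.3, using log2(RTI + 0.002) and no factor besides strain, and p-values were adjusted over all 337 genes. The script was tested on simulated data that held no zeros and were fitted without the added constant. That test does not cover genes listed at 0. Positions and sequences came from the RefSeq copy of R64, in which 331 genes (98.2%) matched by systematic name (Python 3.11.15, Biopython 1.88).

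Members and lists were chosen with earlier results of these data known. Genes named were the members, the measured genes of the isomerase, calcineurin and TOR, and Set3 lists, the 3 genes nearest in pattern to each member and the neighbours. EGD2, UBC4, GLC7, CIS3 and CCW14 were named after their values were seen. Alternatives were pseudocounts of 0.0005 and 0.01, a filter on mean RTI, zeros as missing, libraries divided by their medians, limma's trend and robust options, a replicate block and leaving out each library.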

Additional observations from a re-analysis of the deposited data

How the results depend on the processing

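Both CPR1 and FPR1 stayed higher in sua7-1 under each alternative that gave a value. Nothing is read from that direction, since both were chosen on this contrast. With WT values of 0 for FPR1 and strains that did not overlap for CPR1, leaving out a library could not reverse it. The alternatives thus bear on the size of the differences only. The log2 difference of CPR1 was 5.62 with a pseudocount of 0.0005, 3.68 with 0.01 and 2.27 after division of libraries by their medians, against 5.05 as reported, and 4.75 to 5.29 with each library left out in turn. The difference in mean RTI of FPR1 was 0.408 to 0.583 with libraries left out, against 0.494, and 0.152 after the libraries were set to a common median of 0.0177. With zeros taken as missing FPR1 has no WT value and no test could be made. Division by the medians changed the calls over all genes from 256 (253 rose, 3 fell) to 76 (23 rose, 53 fell) and those of the chaperone list from 11 to 3. Leaving out a library gave 215 to 281 calls, and 9 to 11 in the chaperone list. Of the 6 nearest genes, 3 were kept with a pseudocount of 0.0005 and 4 with 0.01, HSC82 staying nearest to CPR1 in both.

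Same-numbered libraries did not deviate together (Pearson r across genes of 0.11, -0.12 and -0.06 for replicates 2, 3 and 4, the last over 33 genes). No mutant library correlated best with the WT library of its own number, so the numbers were not taken as pairs. With a replicate block the log2 difference of CPR1 was 5.29, the difference of FPR1 was 0.408 over 2 pairs, and 265 genes were called. The missing read numbers and the 3 values per strain set the precision for both genes.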
